A study of Mus musculus with 16 samples.

Results

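A set of 10 WNT ligand genes was followed: WNT1, WNT3, WNT3A, WNT4, WNT5A, WNT5B, WNT6, WNT7B, WNT8B and WNT10A. The members were taken by name from the 30854 target names of the array table, and they carried 16 of its 45281 probes. They were singled out because WNT6, WNT10A, WNT4 and WNT3 were higher with BMP4 in co-cultures, so the values of that comparison are given as a description and without a test. A probe was retained if all arrays of some group had a detection p-value under 0.05 for it, and 8 of the 10 members had such a probe. WNT1 and WNT8B had none, and WNT6, WNT10A and WNT3 were retained only through the BMP4 co-cultures, where they are high. WNT3A, WNT4 and WNT7B were retained only through co-culture groups, so their levels in co-cultures and PA6 cells are compared without a test.

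The cells were mouse embryonic stem (ES) cells grown on PA6 cells, which are bone marrow stromal cells of the mouse, or PA6 cells grown alone, harvested on day 7 from medium without serum. Per the methods of the study, the ES cells carried a knock-in of enhanced green fluorescent protein driven by the tau promoter. Each kind of culture was left without growth factors (-GFs), or received 1 factor for 3 days from the start, either 20 ng/ml of FGF2 or 10 ng/ml of BMP4 (the methods state a lower dose of BMP4 than the labels). RNA of whole cultures was hybridized to Illumina mouse bead arrays, which gave 2 -GFs, 3 FGF2 and 2 BMP4 arrays of ES/PA6 co-cultures and 3 arrays of PA6 mono-cultures in each condition. All co-culture RNA therefore holds PA6 transcripts as well as those of the ES cell progeny, and in such bulk RNA fewer cells of a type cannot be told apart from less RNA per cell. Replicates were separate wells of biological replicates per the labels, and each p-value measures the spread between these arrays.

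WNT proteins are secreted, lipid-modified signals that are acylated by PORCN, carried out of the cell by WLS (listed on the array as GPR177) and bound by Frizzled receptors with the co-receptors LRP5 and LRP6. Ligands such as WNT1, WNT3 and WNT3A are known for stabilizing beta-catenin, which acts with TCF/LEF factors on target genes such as AXIN2, whereas WNT5A and WNT5B mostly signal without beta-catenin. In the embryo WNT3 is needed for the primitive streak, WNT6, WNT4 and WNT10A are expressed in surface ectoderm and other epithelia, and WNT7B is expressed in the forebrain and in several epithelia.

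Promoter sequences of Wnt6, Wnt4 and Wnt3 are shown because these genes had higher signals with BMP4 in co-cultures. Of the 10 members, 7 had an entry in the promoter table (RefSeq, GRCm38.p6), which spans 250 bases before to 50 bases after each start site. Wnt10a, Wnt5a and Wnt7b had no entry. Capitals mark matches to 4 motifs searched on both strands: AP-2 (GCCNNNGGC), a GC-rich element bound by BMP-activated SMADs (GGCGCC), TCF/LEF (CTTTGA) and the TATA box (TATAAA).
Wnt6, chr1:74771642-74771941, plus strand: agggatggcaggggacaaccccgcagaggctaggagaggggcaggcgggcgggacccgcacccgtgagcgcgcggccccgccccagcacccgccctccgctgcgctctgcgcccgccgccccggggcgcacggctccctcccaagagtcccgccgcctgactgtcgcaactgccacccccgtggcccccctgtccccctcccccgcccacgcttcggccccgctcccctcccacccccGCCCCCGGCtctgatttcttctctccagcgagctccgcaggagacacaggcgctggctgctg
Wnt4, chr4:137277385-137277684, plus strand: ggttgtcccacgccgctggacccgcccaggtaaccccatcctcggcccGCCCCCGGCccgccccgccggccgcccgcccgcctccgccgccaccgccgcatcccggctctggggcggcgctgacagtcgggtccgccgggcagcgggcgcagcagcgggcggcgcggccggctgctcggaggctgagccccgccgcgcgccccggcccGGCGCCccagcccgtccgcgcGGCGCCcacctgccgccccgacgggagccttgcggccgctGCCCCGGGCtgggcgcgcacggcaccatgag
Wnt3, chr11:103773925-103774224, plus strand: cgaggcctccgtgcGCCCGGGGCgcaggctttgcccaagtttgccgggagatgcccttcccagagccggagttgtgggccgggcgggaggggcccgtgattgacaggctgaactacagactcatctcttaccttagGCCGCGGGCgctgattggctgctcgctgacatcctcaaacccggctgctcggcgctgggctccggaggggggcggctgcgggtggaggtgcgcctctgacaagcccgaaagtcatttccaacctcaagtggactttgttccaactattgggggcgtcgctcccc
The AP-2 letters occurred once upstream of Wnt6, at 2 places in Wnt4 and at 2 places in Wnt3, and 16.6% of the 32851 promoters of the table held them. Wnt4 also held the GC-rich element at 2 places, against 11.9% of all promoters with at least 1 match. None of the 3 windows held the TCF/LEF letters (16% of all promoters) or the TATA box (13.6%). The windows were rich in G and C, with 76.7% in Wnt6, 84.3% in Wnt4 and 65.7% in Wnt3. A match is a description of letters and not a site of binding.

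In the same gene table some members were direct neighbours among protein-coding genes. Wnt6 and Wnt10a were adjacent on chromosome 1, and both had their highest signal in BMP4 co-cultures. Wnt3 was next to Wnt9b and Wnt3a next to Wnt9a on chromosome 11, and Wnt1 was next to Wnt10b on chromosome 15. WNT9A and WNT9B did not pass the filter, and of their 3 probes 1 of WNT9B was detected on a single array (BMP4 co-culture replicate 1).

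WNT6 was detected in BMP4 co-cultures and in no other group. Its normalized log2 intensities were 5.67 and 5.60 in the 2 -GFs co-cultures, 5.77, 6.03 and 6.22 with FGF2, and 10.90 and 10.63 with BMP4. In PA6 cells alone it ranged from 5.41 to 6.26. The probe was detected on both BMP4 co-cultures and on no other array. With the -GFs arrays set at their detection level, WNT6 was at least 18.8-fold higher with BMP4, and the fitted log2 fold change was 5.13 ± 0.22 (SE).

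WNT10A, a ligand known from tooth and skin development, was measured at 5.68 and 5.53 in -GFs co-cultures, at 5.86, 5.97 and 5.57 with FGF2, and at 9.29 and 8.71 with BMP4 on the log2 scale. Both BMP4 values lay above all others, and the only other array with a detected signal was 1 PA6 culture with FGF2 (6.89). The difference between BMP4 and -GFs co-cultures was at least 5.52-fold (fitted log2 fold change 3.39 ± 0.25). WNT3 had a smaller difference: 6.46 and 6.34 without growth factors, 6.33, 5.69 and 7.16 with FGF2, and 8.40 and 8.51 with BMP4. It was at least 3.78-fold higher with BMP4 than in -GFs co-cultures (fitted 2.06 ± 0.43), and outside the BMP4 co-cultures it was detected on 1 FGF2 co-culture and 1 PA6 culture with BMP4.

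WNT4 differed from WNT6, WNT10A and WNT3 in that the probe used for it was detected on every co-culture array. Its log2 intensities were 6.96 and 7.78 without growth factors, 6.83, 7.72 and 7.54 with FGF2, and 9.96 and 9.98 with BMP4. The -GFs and FGF2 values overlapped and both BMP4 values lay above them (fitted log2 fold change over -GFs 2.60 ± 0.37). The second WNT4 probe was detected in both -GFs and both BMP4 co-cultures, but on only 1 of 3 FGF2 co-cultures. No PA6 culture gave a detected WNT4 signal.

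In the BMP4 comparison 4 of the 8 retained members passed a threshold of adjusted p under 0.1 and a log2 fold change over 1 towards higher and 1 (WNT7B) towards lower, where 3.75% of all 14829 genes passed it (2.28% higher and 1.47% lower). The members were picked on this comparison, so nothing is read from that count. WNT3, with the smallest of the 4 fitted changes, was followed by WNT3A at 0.83 ± 0.51, WNT5A at 0.32 ± 0.51 and WNT5B at -0.13 ± 0.55. WNT1, known for its role at the midbrain and hindbrain boundary, was detected on a single array, BMP4 co-culture replicate 2 (6.73), and was at 6.00 in replicate 1. WNT8B was detected on none of the 16 arrays. Without background correction, which narrows the changes of dim probes, the fitted values were 3.67 for WNT6, 2.19 for WNT10A, 1.88 for WNT4 and 1.18 for WNT3.

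**Figure D1:**
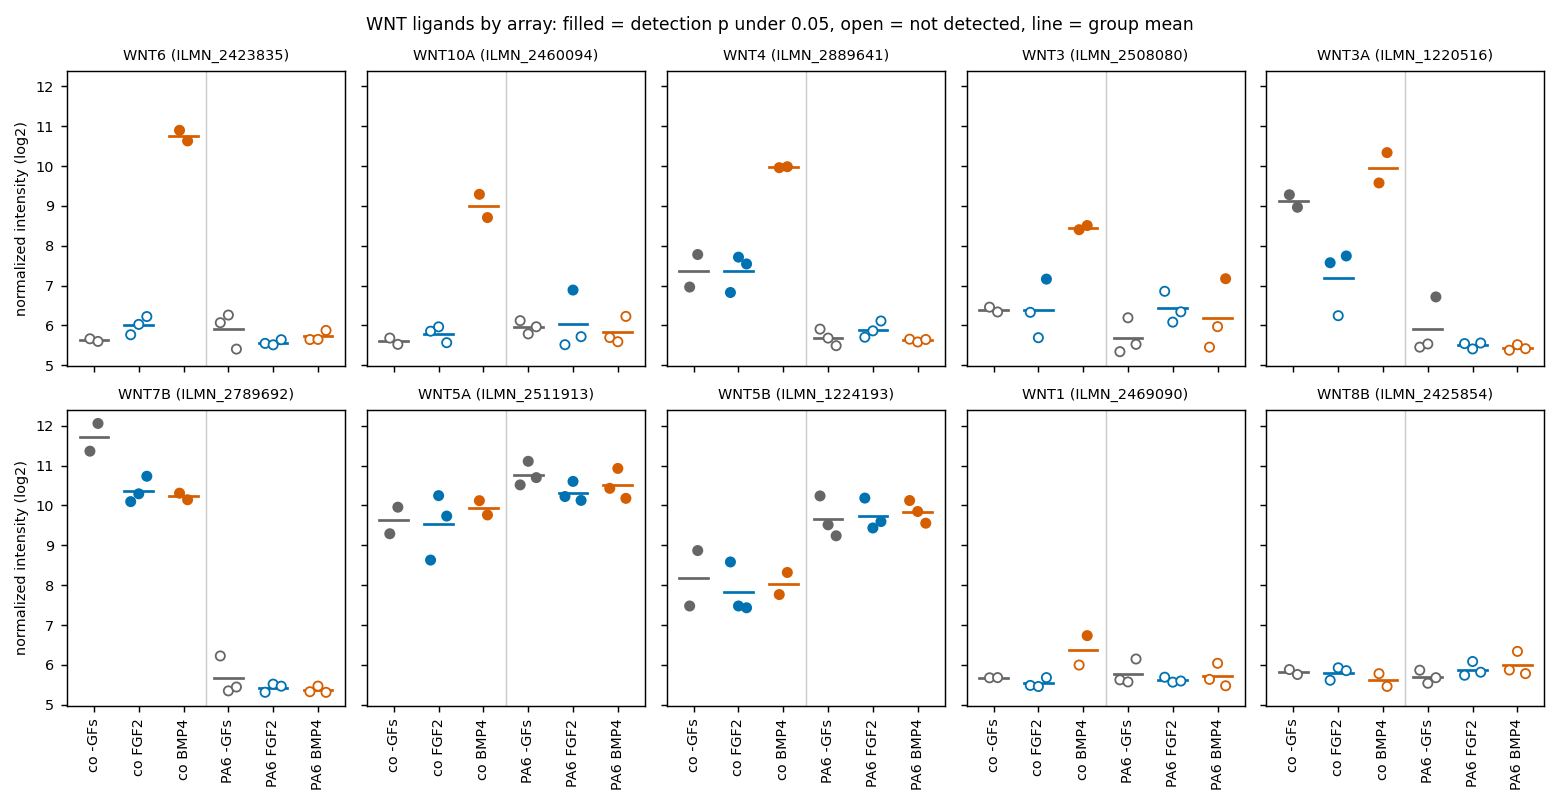
Normalized log2 intensity (vertical axis) of the 10 WNT ligands on each of 16 arrays, grouped by culture and growth factor (co, ES/PA6 co-culture), with 1 probe per gene, filled points for detected signals and a line at each group mean. WNT6, WNT10A, WNT4 and WNT3 were highest in the 2 BMP4 co-cultures, WNT7B was detected in co-cultures only, and WNT5A and WNT5B were detected on all 16 arrays.

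Set against FGF2 in place of -GFs, the BMP4 co-cultures showed the same 4 ligands at higher signals. These values use the same BMP4 arrays and are given without a test: WNT6 was at least 19.6-fold and WNT10A at least 5.75-fold higher, WNT4 differed by a log2 value of 2.61 ± 0.34 and WNT3 by 2.06 ± 0.39. WNT3 was detected on 1 of 3 FGF2 co-cultures, so its difference is taken against mostly undetected signals. Across all genes 1.44% passed the threshold in this comparison. FGF2 and -GFs co-cultures did not separate for WNT4 (-0.01 ± 0.34 on the log2 scale), and WNT6 and WNT10A were undetected in both, so no fold is given.

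With BMP4 over -GFs the probes of one gene gave the same direction. Besides the probe described above, WNT6 had 2 others. One measured 5.54 and 5.46 in -GFs co-cultures and 11.26 and 10.72 with BMP4 (at least 21.9-fold higher), and the other 5.48 and 6.00 against 7.72 and 8.04 (at least 2.54-fold higher). All 3 WNT6 probes were detected on the 2 BMP4 co-cultures and on no other array, so each fold is a lower bound and the bounds cannot be set against each other. The 2 WNT4 probes had fitted log2 fold changes of 2.60 ± 0.37 and 2.41 ± 0.22 over -GFs. The 2 WNT7B probes were at -1.48 ± 0.31 and -1.46 ± 0.46, and the 3 WNT5A probes lay between 0.25 and 0.32, with standard errors from 0.33 to 0.74.

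**Figure D2:**
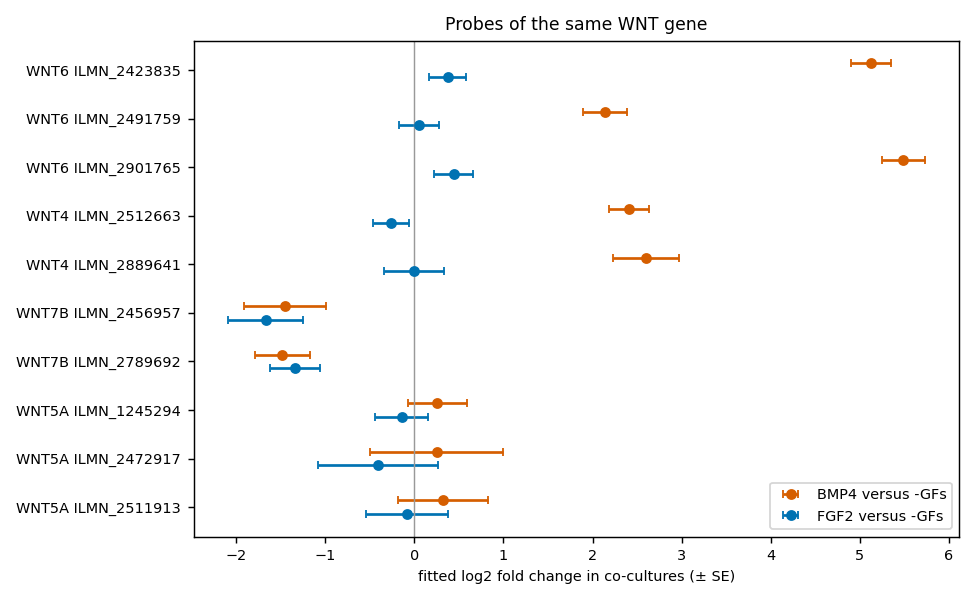
Fitted log2 fold change (horizontal axis, ± SE) of each probe of the 4 members with more than 1 probe past the filter, in BMP4 and in FGF2 co-cultures against -GFs co-cultures. All 3 WNT6 probes lay above 0 with BMP4, at fitted values that are taken against undetected signals, and the probes of WNT4, of WNT7B and of WNT5A lay within their standard errors of each other.

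In co-cultures 2 members, WNT3A and WNT7B, were lower with FGF2 than without growth factors, with 2.35% of all genes called lower, 5.07% called higher and 7.42% in either direction. WNT3A measured 9.28 and 8.97 in -GFs co-cultures and 7.57, 6.25 and 7.74 with FGF2. The FGF2 values lay below both -GFs values, and replicate 2 was undetected (log2 change -1.94 ± 0.47, adjusted p = 0.0585, limma). With BMP4 it measured 9.58 and 10.34, above every FGF2 array (BMP4 over FGF2 2.77 ± 0.47, adjusted p = 0.0729, limma). These BMP4 arrays also belong to the comparison that picked the members.

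WNT7B measured 11.36 and 12.06 in -GFs co-cultures, 10.10, 10.29 and 10.73 with FGF2, and 10.31 and 10.14 with BMP4. The FGF2 and BMP4 values overlapped each other and lay below both -GFs values. The fall with FGF2 was 1.34 ± 0.28 on the log2 scale (adjusted p = 0.0388, limma), a second probe gave -1.67 ± 0.42 (adjusted p = 0.0682, limma, over all retained probes), and BMP4 against FGF2 gave -0.15 ± 0.28 (adjusted p = 0.875, limma). In the description of BMP4 against -GFs the value was -1.48 ± 0.30.

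Both calls with FGF2 rest on few arrays and share the -GFs arrays with the comparison that picked the members. For WNT3A the adjusted p was 0.238 without -GFs replicate 1, 0.166 without -GFs replicate 2 and 0.116 with no filter on dim probes. For WNT7B it was 0.175 without -GFs replicate 2 (change -0.99) and 0.106 without FGF2 replicate 2. The WNT3A difference between BMP4 and FGF2 passed neither without either BMP4 array (adjusted p = 0.111 and 0.37), nor without FGF2 replicate 1 (0.126) or 3 (0.111), nor with no filter (0.157).

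WNT5A and WNT5B, the ligands of the beta-catenin-independent kind, were detected on all 16 arrays. In co-cultures WNT5A measured 9.29 and 9.96 without growth factors, 8.63, 10.25 and 9.73 with FGF2, and 10.12 and 9.76 with BMP4, and the 3 groups overlapped. WNT5B measured 7.48 and 8.87, then 8.58, 7.48 and 7.43, then 7.76 and 8.32 in the same order, again with overlap. Neither passed the threshold between FGF2 and -GFs, at -0.09 ± 0.46 for WNT5A and -0.34 ± 0.50 for WNT5B, or between BMP4 and FGF2, at 0.40 ± 0.46 and 0.21 ± 0.50.

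In PA6 cells alone no member passed the threshold for either factor by limma. Of all genes 0.027% passed with FGF2 against -GFs, 0% with BMP4 against -GFs and 0.31% with BMP4 against FGF2, and at an unadjusted p under 0.05 there were 1536, 1334 and 1375 genes. None of these comparisons shares an array with the one that picked the members. WNT5A measured 10.52, 11.11 and 10.70 without growth factors, 10.22, 10.60 and 10.13 with FGF2, and 10.43, 10.93 and 10.18 with BMP4. Its change with FGF2 was -0.46 ± 0.24 (adjusted p = 0.533, limma), and WNT5B changed by 0.07 ± 0.29 with FGF2 and by 0.18 ± 0.29 with BMP4. WNT6, WNT4 and WNT7B were undetected on all 9 PA6 arrays, and WNT3A, WNT10A and WNT3 were detected on 1 array each.

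WNT5B and, without growth factors, WNT5A were lower in co-cultures than in PA6 cells alone, whereas WNT7B, WNT3A and WNT4 were higher. With FGF2, a comparison that uses no array of the one that picked the members, 3 members were called higher and 1 lower, where 23.4% and 22.9% of all genes were called (46.4% in all). The 3 higher ones were retained only through co-culture groups, where they are high, and are described without a test. WNT7B was at least 11.9-fold higher in the co-cultures, WNT3A at least 1.30-fold, detected on 2 of 3 arrays, and WNT4 at least 1.47-fold. WNT5B was lower (log2 difference -1.91 ± 0.40, adjusted p = 0.000775, limma), and WNT5A did not pass at -0.78 ± 0.35 (adjusted p = 0.0626). WNT6 was undetected in both kinds of culture with FGF2. WNT10A and WNT3 were each detected on 1 of the 6 arrays, and neither passed the threshold.

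The size of these differences depended on the probe. The second WNT7B probe differed by 0.91 ± 0.28 with FGF2 and the second WNT4 probe by 0.65 ± 0.20, both under the fold threshold. WNT5A passed at -1.14 without FGF2 co-culture replicate 2 and at -1.18 with median scaling in place of quantile normalization, and WNT4 no longer passed without background correction (0.84).

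Without growth factors 44.1% of all genes were called between co-cultures and PA6 cells, 22.3% higher and 21.8% lower in co-cultures, and the co-culture arrays are those of the comparison that picked the members. WNT7B and WNT3A, retained only through co-culture groups, are described without a test. In co-cultures WNT7B was at least 32.5-fold higher. WNT3A measured 5.46, 5.54 and 6.72 in PA6 cells, where only the last was detected. Its fitted difference of 3.22 ± 0.43 is thus taken against mostly undetected signals. WNT5A was lower in co-cultures, with a log2 difference of -1.15 ± 0.39 (adjusted p = 0.0202, limma), as was WNT5B at -1.49 ± 0.45 (adjusted p = 0.00996). Without -GFs co-culture replicate 1 these became -0.82 and -0.80 and neither passed, and WNT5A also did not pass without PA6 -GFs replicate 2 (-0.98), as the mean of its probes (-0.93) or with runs of table columns as a block (-0.94). WNT4, described without a test, was at least 1.61-fold higher, and its second probe differed by 0.89 ± 0.23, under the fold threshold. The second WNT7B probe measured 7.61 and 8.93 in -GFs co-cultures and was undetected in PA6 cells.

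With BMP4 42.4% of all genes were called, 22% higher and 20.3% lower, and the 4 picked ligands are again described only. WNT6 was at least 15.1-fold, WNT4 at least 8.71-fold (4.52-fold by its second probe) and WNT10A at least 4.44-fold higher in co-cultures than in PA6 cells. WNT3 differed by 2.26 ± 0.47, taken against PA6 signals that were detected on 1 of 3 arrays. WNT3A, at least 8.62-fold higher, and WNT7B, at least 10.4-fold, were retained only through co-culture groups and are also given without a test. WNT5B was lower at -1.80 ± 0.45 (adjusted p = 0.00319, limma). WNT5A differed by -0.57 ± 0.39 and did not pass.

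**Figure D3:**
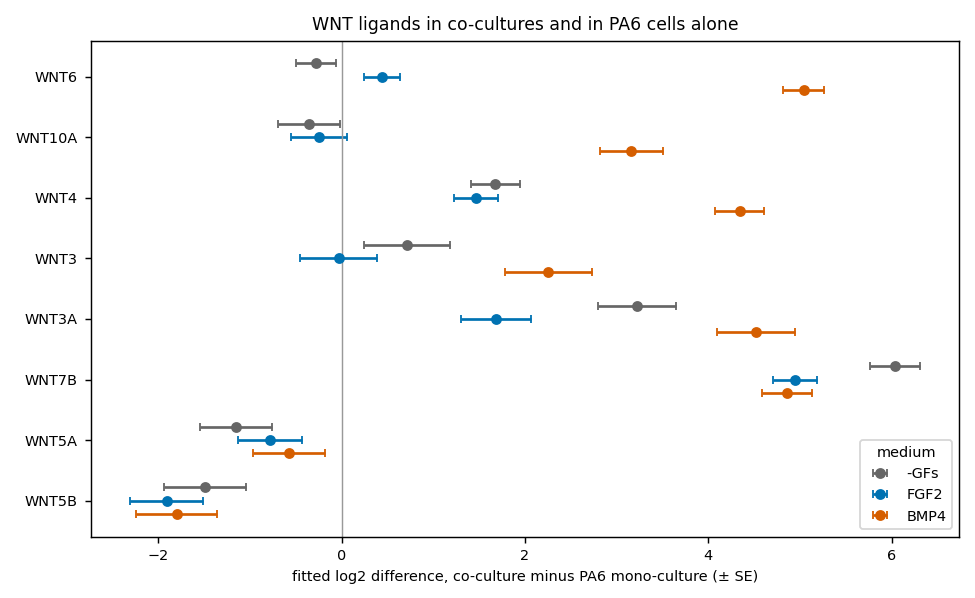
Fitted log2 difference of ES/PA6 co-cultures from PA6 mono-cultures (horizontal axis, ± SE) for the 8 retained WNT ligands in each medium, with positive values for a higher signal in co-cultures. WNT7B, WNT3A and WNT4 lay above 0 in all 3 media, WNT5A and WNT5B lay below 0, and WNT6 and WNT10A lay far above 0 with BMP4 only. Fitted values of genes undetected in PA6 cells are not bounds.

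Stromal marker genes moved in the same direction as WNT5A and WNT5B between the 2 kinds of culture. The summed normalized intensity of 10 stromal markers (collagens, CXCL12, VCAM1 and others) was 63740 to 68650 in -GFs co-cultures and 212300 to 241900 in PA6 cells. Without growth factors 8 of the 10 were called lower in co-cultures, against 21.8% of all genes, and their median log2 difference was -2.73. DCN weighs most in the co-culture sums and differed less (15.46 and 15.35 in -GFs co-cultures, 15.57, 16.03 and 16.08 in PA6 cells). With FGF2 the sums were 61080 to 69310 and 196700 to 210500, and with BMP4 65140 to 81980 and 186100 to 215300. All 10 were detected in every group. Between growth factors within co-cultures none of the 10 was called. The part of the stromal share in the WNT5A and WNT5B values was not tested.

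The FGF2 effect was compared between co-cultures and PA6 cells by an interaction term, where 7.9% of all genes passed. For WNT7B the difference was -1.10 ± 0.36 (adjusted p = 0.0922, limma), and for WNT3A it was -1.54 ± 0.57 (adjusted p = 0.131). WNT5A, at 0.37 ± 0.53, and WNT5B, at -0.42 ± 0.60, did not pass. The WNT7B call was kept in 3 of 16 fits with 1 array left out and in 4 of 11 other settings, and, among the settings without a replicate block, WNT3A passed without FGF2 co-culture replicate 3 (adjusted p = 0.0801) or without PA6 -GFs replicate 3 (0.053) and with an offset of 50 (0.0644). WNT7B was undetected on all PA6 arrays and WNT3A on all but 1.

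For each member the order of the 6 group means followed from these values. WNT6, WNT10A, WNT4 and WNT3 were highest in BMP4 co-cultures; for WNT6, WNT10A and WNT3 the other 5 groups lay near the detection level and have no order. For WNT4 the -GFs co-cultures (mean 7.37, SD 0.58) and FGF2 co-cultures (7.36, SD 0.47) came next without a difference beyond their spread. WNT3A ran from BMP4 (9.96, SD 0.54) to -GFs (9.12, SD 0.22) to FGF2 co-cultures (7.19, SD 0.82). WNT7B ran from -GFs (11.71, SD 0.49) to FGF2 (10.37, SD 0.33) and BMP4 co-cultures (10.23, SD 0.12), and the last 2 overlapped. The lowest PA6 value of WNT5B (9.24) exceeded its highest co-culture value (8.87).

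The other genes of the pathway, listed by role, were counted in the same comparisons. Of 9 other WNT ligands 3 were retained, and none was called between growth factors in co-cultures. WNT10B, next to Wnt1 in the genome, was detected in both -GFs co-cultures (9.23 and 6.60), in none of the co-cultures with FGF2 or BMP4, and on 7 of 9 PA6 arrays. Against the detection level its mean without growth factors, which rests mostly on 1 array, was at least 2.71-fold that with FGF2, and the difference did not pass (adjusted p = 0.123, limma). WNT7A, a neural and epithelial ligand, was at -0.97 ± 0.32 with FGF2 (adjusted p = 0.125), and WNT8A was at -1.42 ± 1.14 with widely spread replicates (10.84 and 8.43 in -GFs co-cultures). Of 4 retained genes for acylation, export and removal of WNT proteins (PORCN, GPR177, TMED2 and NOTUM) none was called with either factor in co-cultures, and with BMP4 over -GFs the 4 values ran from 0.07 to 0.88.

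Among 14 retained receptors and co-receptors, 3 Frizzled genes were lower and 1 higher with FGF2: FZD3 (-1.55 ± 0.45, adjusted p = 0.0932, limma), FZD10 (-1.27 ± 0.27, adjusted p = 0.0427), FZD2 (-1.07 ± 0.17, adjusted p = 0.0172) and FZD5 (1.26 ± 0.17, adjusted p = 0.011). Of all genes 2.35% were called lower and 5.07% higher. The median of the 14 was -0.46 against -0.06 over all genes. With BMP4 over -GFs the 1 receptor past the threshold was FZD6, which was higher, where 2.28% of all genes were called higher. It measured 8.11 and 8.12 in -GFs co-cultures, 7.64, 8.21 and 7.76 with FGF2, and 9.70 and 10.25 with BMP4, so that the BMP4 arrays stood apart. FZD6 is known for its part in planar polarity of skin and hair. Values of the other 13 with BMP4 ran from -1.20 (FZD4) to 0.45 (RYK). The FZD4 value rests on -GFs replicate 1 (7.9986). Replicate 2 (5.75) and both BMP4 arrays (5.55 and 5.81) lay under the detection level, so -1.20 is not a measured size. The paper reports FZD4 as up-regulated by BMP4 in co-cultures, which signals under the detection level cannot decide.

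Among the antagonists and their receptors KREMEN2 and SOSTDC1 had higher signals on both BMP4 arrays than on any other co-culture. KREMEN2, a receptor for DKK proteins, measured 5.94 and 5.67 in -GFs co-cultures, 6.45, 6.17 and 6.70 with FGF2, and 11.13 and 11.19 with BMP4, at least 24.6-fold over -GFs. SOSTDC1, an antagonist of both WNT and BMP signals, was at 8.76 and 7.20, at 8.72, 8.41 and 9.11, and at 11.36 and 10.73 in the same order. Of 7 retained antagonists these 2 were past the threshold with BMP4, and with FGF2 the 2 called were FRZB (-1.65 ± 0.37, adjusted p = 0.0478, limma) and SFRP2 (-1.15 ± 0.29, adjusted p = 0.0672), both of them Frizzled-related decoys and both lower. Of all genes 3.75% passed with BMP4 and 7.42% with FGF2.

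Of 7 retained beta-catenin targets none was called between FGF2 and -GFs co-cultures, where 3 had positive values (SP5, TCF7 and LEF1) and 4 negative ones (AXIN2, NKD1, NKD2 and T). AXIN2 and NKD1, shown because they were called between BMP4 and FGF2, were chosen after their values were seen. AXIN2 measured 10.68 and 10.82 without growth factors, 9.94, 10.02 and 10.03 with FGF2, and 10.90 and 11.31 with BMP4. NKD1, like AXIN2 a feedback inhibitor, measured 7.83 and 8.01, then 7.07, 6.98 and 7.30, then 8.46 and 8.16. Both were higher with BMP4 than with FGF2, by 1.11 ± 0.18 for AXIN2 (adjusted p = 0.0707, limma) and 1.19 ± 0.19 for NKD1 (adjusted p = 0.0633), 2 of the 7 targets, where 1.44% of all genes were called. The genes called between BMP4 and FGF2 numbered 11 to 574 over the other settings in place of 214, and 63, 50 and 58 without FGF2 replicates 1 to 3. These targets were not followed through those fits. With FGF2 against -GFs neither reached the fold threshold, at -0.76 ± 0.18 and -0.81 ± 0.19. SP5 was past the threshold with BMP4 over -GFs (2.12 ± 0.47) and T, a primitive streak gene, was not in either comparison, at -1.09 ± 0.72 with BMP4 and -1.77 ± 0.65 with FGF2.

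**Figure D4:**
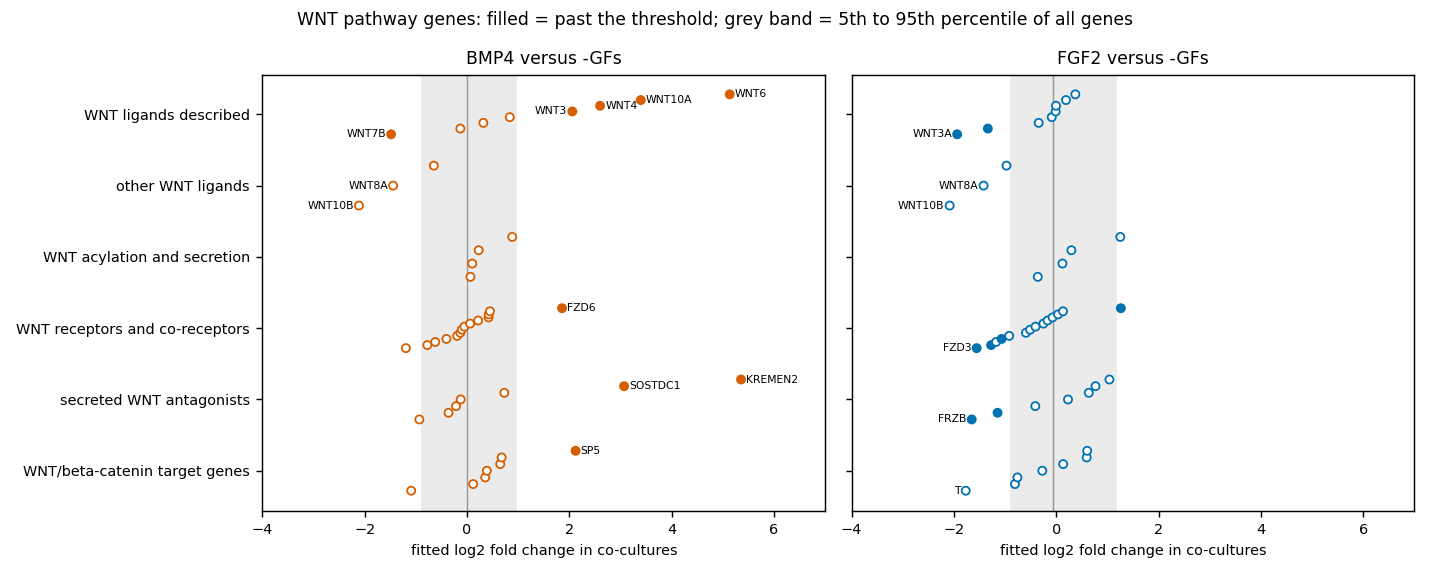
Fitted log2 fold change (horizontal axis) of every retained gene of 6 WNT pathway lists in co-cultures, for BMP4 and for FGF2 against -GFs, with filled points past the threshold, a grey line at the median of all 14829 genes and a grey band over all but the outer tails of their values (-0.88 to 0.965 with BMP4 and -0.89 to 1.17 with FGF2). With BMP4 WNT6 and KREMEN2 lay far to the right, both undetected in -GFs co-cultures so that their place along the axis is not a measured size, and with FGF2 the points past the threshold were on the left except FZD5 (1.26).

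Markers of other cell types differed between the same co-cultures. The summed normalized intensity of 11 epidermal and surface ectoderm markers was 5131 to 5300 without growth factors, 11440 to 11980 with FGF2 and 25620 to 42210 with BMP4. With FGF2 only 6 of the 11 had positive values (median 0.13), while the keratins KRT8, KRT18 and KRT15 had values from -0.65 to -0.26. TCFAP2C (2.25 ± 0.21), CDH1 (2.37 ± 0.37) and GRHL3 (1.20 ± 0.34) were the 3 called, all higher, where 5.07% of all genes were called higher. KRT5, KRT14 and TRP63 were undetected in -GFs co-cultures. All 11 were detected with BMP4, where 6 were past the threshold towards higher, against 2.28% of all genes. The probes of KRT5, KRT14 and KRT15 were retained only through the BMP4 co-cultures, so their detection there was fixed in advance. KRT14, a keratin of basal epidermis, measured 5.66 and 6.27 in -GFs co-cultures, 8.45, 5.60 and 6.26 with FGF2, and 14.15 and 12.47 with BMP4. The sum of 5 neural markers was 13160 to 18190 without growth factors, 6616 to 7745 with FGF2 and 5993 to 6910 with BMP4, and none was undetected. Epidermal sums were thus highest with BMP4 and neural sums highest without growth factors, with no overlap between those groups and the others. The sum of 6 neural crest markers (of 8 listed) was 3797 to 5731, 4495 to 5561 and 8314 to 8603 in that order, and 12230 to 14310 in PA6 cells without growth factors. With BMP4 over -GFs 4 of the 6 had positive values and 3 were past the threshold, with 2.28% of all genes called higher. SOX10 went from 7.17 and 7.65 in -GFs co-cultures to 6.62 and 6.93 with BMP4, and PAX3 from 7.45 and 7.80 to 6.01 and 7.10. For 4 endothelial markers, of 8 listed, the sum was 387.4 to 522.1 without growth factors. It was 2018 to 3492 with FGF2 and 1697 to 2138 with BMP4. The other listed ones did not pass the filter. PECAM1 had the highest value of the 4 on each FGF2 co-culture (10.49, 11.11 and 10.29). ESAM values with FGF2 overlapped those without growth factors, and TEK and EMCN were undetected in -GFs co-cultures. The sum of 9 pluripotency markers was 14770 to 15880, 61880 to 73830 and 26760 to 45600 in the same order. The part of these cell types in the WNT values was not tested.

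The genes whose pattern over the 16 arrays was most like that of WNT6, by Pearson correlation of log2 intensities, were 4631405K08RIK (r = 0.989), KREMEN2 (0.973), IRX6 (0.97), KRT15 (0.969) and COL17A1 (0.965). IRX6 is a homeobox gene, KRT15 a basal keratin and COL17A1 a collagen of the hemidesmosome. Each was high on the 2 BMP4 co-cultures, with group means from 8.17 (IRX6) to 12.78 (KRT15), and was near the detection level in the other groups. The arrays fall into 2 separate sets for WNT6, so r mostly records this contrast and is given as a description, over arrays that share normalization and, in co-cultures, a source. Among the other members WNT10A ranked 19th of 14828 genes by this measure (r = 0.937), WNT4 46th (0.855), WNT3 68th (0.818) and WNT3A 231st (0.661), while WNT5B was at -0.40.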

How the data were processed

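RNA of 16 cultures was measured on Illumina MouseWG-6 v2.0 arrays. The authors deposited average bead intensities that were not normalized between arrays, exported with GenomeStudio 2011.01 per the labels, and their detection p-values. The authors' own spline-normalized values were not used here. Intensities were background corrected by normexp from the detection p-values, quantile normalized and put on the log2 scale with an offset of 16 (neqc, limma 3.58.1, R 4.3.3). Each gene took its probe with the highest mean, which left 14829 genes of 20880 probes. Linear models with moderated variances were fitted to 7 co-culture arrays, 9 PA6 arrays or, between cultures, all 16, without a replicate block, and p-values were adjusted by Benjamini-Hochberg over all genes. Genes undetected on every array of a group were given a bound against the lowest detected signal of those arrays. Between 37.3% and 47% of probes were detected per array, and few arrays per group limit the precision. The fit was tested on simulated data. Named besides the members were the genes of each list with the largest changes, up to 3 each way, every other retained WNT ligand and the 5 genes most like WNT6; AXIN2 and NKD1 with their array values, KRT14, T and others were chosen after their values were seen. The members and lists were chosen with earlier results of these data known. Normalization, offset, background, filter, probe choice, arrays in the fit, blocks and thresholds were varied.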

Additional observations from a re-analysis of the deposited data

Results flagged for a closer look

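WNT7B was singled out because its FGF2 effect differed between cultures by an interaction term: co-cultures minus PA6 cells gave -1.10 ± 0.36 on the log2 scale (adjusted p = 0.0922, limma). WNT7B was lower on all 3 FGF2 co-cultures than on both -GFs co-cultures and was undetected on all PA6 arrays, so that the PA6 side of the difference is a comparison of signals below detection. Over all fits with 1 array left out and all other settings the difference ran from -1.45 to -0.75, with adjusted p from 0.0249 to 0.446.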

How the results depend on the processing

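Member by member, 1118 of 1164 values from other settings and left-out arrays kept both their direction and their side of the threshold, 40 lost and 6 gained a call, and no called value reversed; 33 uncalled values changed sign. Of 620 values left out of that count because of how the members were picked, 51 moved by more than the spread between replicates. The count of WNT ligands called with FGF2 against -GFs in co-cultures was 1 instead of 2 with no filter on dim probes, with the replicate number as a block and at an adjusted p under 0.05, and ran from 0 to 2 with 1 array left out. With BMP4 against -GFs it ran from 3 to 6 over the other settings in place of 5, with 3 for no filter and at 0.05. With BMP4 against FGF2 it was 3 with no filter and at 0.05, and 2 with the replicate block. Between co-cultures and PA6 cells without growth factors it ran from 3 to 5 with 1 array left out. For the difference of FGF2 effects it was 0 instead of 1 with median scaling, no filter, other arrays in the fit, runs of neighbouring table columns as a block, a trended variance prior and at 0.05, and 2 with an offset of 50 (0 to 2 left out). The cause was not tested. Replicate numbers did not pair the arrays by the check used: deviations of arrays with the same number correlated from -0.20 to 0.28 in co-cultures and from 0.07 to 0.20 in PA6 cells. By the same check arrays of one run of neighbouring table columns correlated from 0.10 to 0.28 in co-cultures, and other pairs from -0.28 to 0.10. In PA6 cells runs and replicate numbers are the same. The reported p-values use no such block. With runs as a block 560 genes in place of 214 were called with BMP4 against FGF2, and the WNT7B difference of FGF2 effects did not pass (adjusted p = 0.122, limma). In PA6 cells every array correlated best with its own number, as a hint from the data. With the replicate block WNT3A no longer passed with FGF2 against -GFs (-2.21, adjusted p = 0.101, limma) or with BMP4 against FGF2 (3.05, 0.153). These changes were no smaller than without the block (-1.94 and 2.77). In the difference of FGF2 effects WNT3A passed with the block (-1.71, adjusted p = 0.0811, limma) and WNT7B did not (0.121). The block changed the genes called with BMP4 against -GFs from 556 to 258, and a pairing crossed between these groups, chosen after seeing the data, gave 553. Median scaling moved the median of all genes most for BMP4 against FGF2, from 0.04 to 0.51 on the log2 scale. It moved the share of higher calls from 60.8% to 78.6% with BMP4 against -GFs, from 52.3% to 76.5% with BMP4 against FGF2, from 50.5% to 37.6% between cultures with FGF2 and from 62.3% to 81.1% for the difference of FGF2 effects; WNT3A and WNT7B with FGF2 were then at -1.87 and -1.64. Over all other settings, genes called ranged from 594 to 1271 with FGF2 against -GFs (1100 as reported), from 258 to 870 with BMP4 against -GFs (556), from 11 to 574 with BMP4 against FGF2 (214), from 301 to 1261 for the difference of effects (1172), and in PA6 cells from 1 to 32 (4), 0 to 6 (0) and 2 to 72 (46). With 1 co-culture array left out they ranged from 395 to 1069 with FGF2 against -GFs (395 without -GFs replicate 1 and 707 without -GFs replicate 2), from 102 to 547 with BMP4 against -GFs (301 and 226 without -GFs replicate 1 and 2, 102 and 330 without BMP4 replicate 1 and 2) and from 39 to 187 with BMP4 against FGF2 (39 without BMP4 replicate 2, and 63, 50 and 58 without FGF2 replicates 1 to 3). Signals near the detection level limit WNT6, WNT10A and WNT3 outside BMP4 co-cultures.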
